A study of Mus musculus with 6 samples.

Results

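The mitochondrial ribosomal proteins are the protein subunits of the ribosome inside mitochondria, and their genes are named Mrpl for the large subunit and Mrps for the small subunit. Members were chosen by name alone: every non-control spot whose gene name begins with Mrpl or Mrps followed by a digit. This gave 133 spots, 106 probes and 76 genes, out of 26639 genes that could be tested. The 76 genes comprised 47 with large-subunit names and 29 with small-subunit names. For all 76 the brightest probe cleared the background on each of the 6 arrays, so none was lost to the filter on dim signals.

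The study measured total RNA of spleen from B10.BALB-16.C2A mice on Agilent one-colour arrays. One group consisted of resting mice that received 0 cGy, and the other of mice taken 24 h after total body irradiation with 900 cGy of X-rays. Each array held RNA pooled from 3 mice, and there were 3 arrays per group, so p-values measure the spread between pools. Age, sex and housing of the mice are not given in the sources used here.

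Mitochondria keep a small genome that encodes a handful of membrane proteins of the respiratory chain and the ATP synthase, and the mitochondrial ribosome translates only these. All of its proteins are encoded in the nucleus, made on cytosolic ribosomes and imported, while its rRNAs come from mitochondrial DNA. Some of the proteins have a counterpart in the bacterial ribosome and others were added in the evolution of mitochondria. Transcription of nuclear genes for mitochondrial proteins is known to involve NRF1, the ETS factor GABPA with its partner GABPB1, YY1 and coactivators of the PGC-1 family, and MYC is known to drive ribosome and mitochondrial biogenesis in dividing lymphocytes.

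Because the promoters of these genes are where such factors would bind, their sequences were searched in RefSeq (assembly GRCm38.p6), from 250 bases before to 50 bases after each gene's start. A promoter was found for 67 of the 76 members. Mrpl13, Mrpl15, Mrpl19, Mrpl38, Mrpl4, Mrpl54, Mrps28, Mrps34 and Mrps35 were not matched. Both strands were read for exact matches. The NRF1 motif, a palindrome of 10 bases in its full form, occurred in 3 members (4.48%), against 1.07% of all 27025 genes with a promoter and 1.75% of the 13884 of them tested here. The 3 matches are shown in capitals with 10 bases on each side, 5′ to 3′ on the gene's strand.

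Mrpl9 (chr3:94443298-94443327, + strand): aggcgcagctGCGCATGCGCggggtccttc

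Mrpl32 (chr13:14613105-14613134, − strand): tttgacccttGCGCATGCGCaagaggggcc

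Mrpl39 (chr16:84735350-84735379, − strand): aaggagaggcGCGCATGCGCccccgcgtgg

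The ETS and GABPA motif CCGGAAGT was the most frequent of the longer motifs in the members. It occurred in 12 of the 67 (17.9%), against 4.31% of all promoters and 7.08% of those of tested genes. Matches are shown for the member with the second largest decrease, for the one with the eighth largest, for a member that shares its promoter region with a mitochondrial helicase gene, and for a member that rose. In Mrps26 the motif lies on the opposite strand and therefore reads ACTTCCGG.

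Mrps22 (chr9:98601672-98601701, − strand): aacctctcgagCCGGAAGTtgctctatcga

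Mrps26 (chr2:130563731-130563760, + strand): gctccgcggccACTTCCGGgccgggcgcag

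Mrpl43 (chr19:45006436-45006465, − strand): caaccccggaaCCGGAAGTcaccggttagt

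Mrpl27 (chr11:94653725-94653754, + strand): gtccgcaagacCCGGAAGTagatctatccc

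The YY1 motif, capitalised in the sequences, was present in 5 members (7.46%), against 0.995% of all promoters and 1.79% of those of tested genes. In 4 of the 5 it lay just after the gene's start, as in the pair shown.

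Mrps27 (chr13:99344790-99344819, + strand): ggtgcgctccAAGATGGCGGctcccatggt

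Mrpl37 (chr4:107066821-107066850, − strand): tgcacgggcaAAGATGGCGGcgtccaggta

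The E-box CACGTG, the site read by MYC with its partner MAX, was present in 5 members (7.46%). It was in 8.09% of all promoters and 10.3% of those of tested genes. The NF-Y motif CCAAT was present in 27 members (40.3%), against 41.1% of all promoters and 42.2% of those of tested genes. The shares with a motif of NRF1, ETS factors or YY1 were thus above both comparison shares. The shares with an E-box or CCAAT were below both, with no test of these differences. A match is a description of letters and not a measured binding site. Members with the ETS motif had a median log2 change of -0.28 after irradiation and members without it -0.27. The same medians were -0.27 and -0.26 for NRF1, -0.30 and -0.26 for YY1, -0.26 and -0.27 for the E-box, and -0.23 and -0.27 for CCAAT. Whether a match bears on the response was not tested.

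After irradiation the transcripts of many mitochondrial ribosomal proteins were lower, each by less than 2-fold. Of the 76 genes, 39 fell and 2 rose (Mrps6 and Mrpl27) at an adjusted p under 0.05 in limma with Benjamini-Hochberg adjustment over all 26639 genes, and 35 did not pass. Among all genes tested 59.3% passed in either direction, 31% were lower and 28.3% were higher by the same rule, so the members' 51.3% lower and 2.63% higher are read against those shares. The estimate was negative in 66 of the 76 genes, against 53.5% of all genes. The median log2 change was -0.27, against -0.06 over all genes, with a middle range from -0.44 to -0.12. No member changed by 2-fold or more, whereas 23.5% of all genes did so and passed. The changes ran from -0.79 for Mrpl19 to 0.51 for Mrps6. Their median standard error was 0.09, against 0.12 over all genes, and the part of this precision in the members' share was not tested. The 3 irradiated arrays all lay on one side of the 3 unirradiated ones in 53 of the 76 members and in 67.3% of all genes, so that count was near the level of genes at large.

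**Figure D1:**
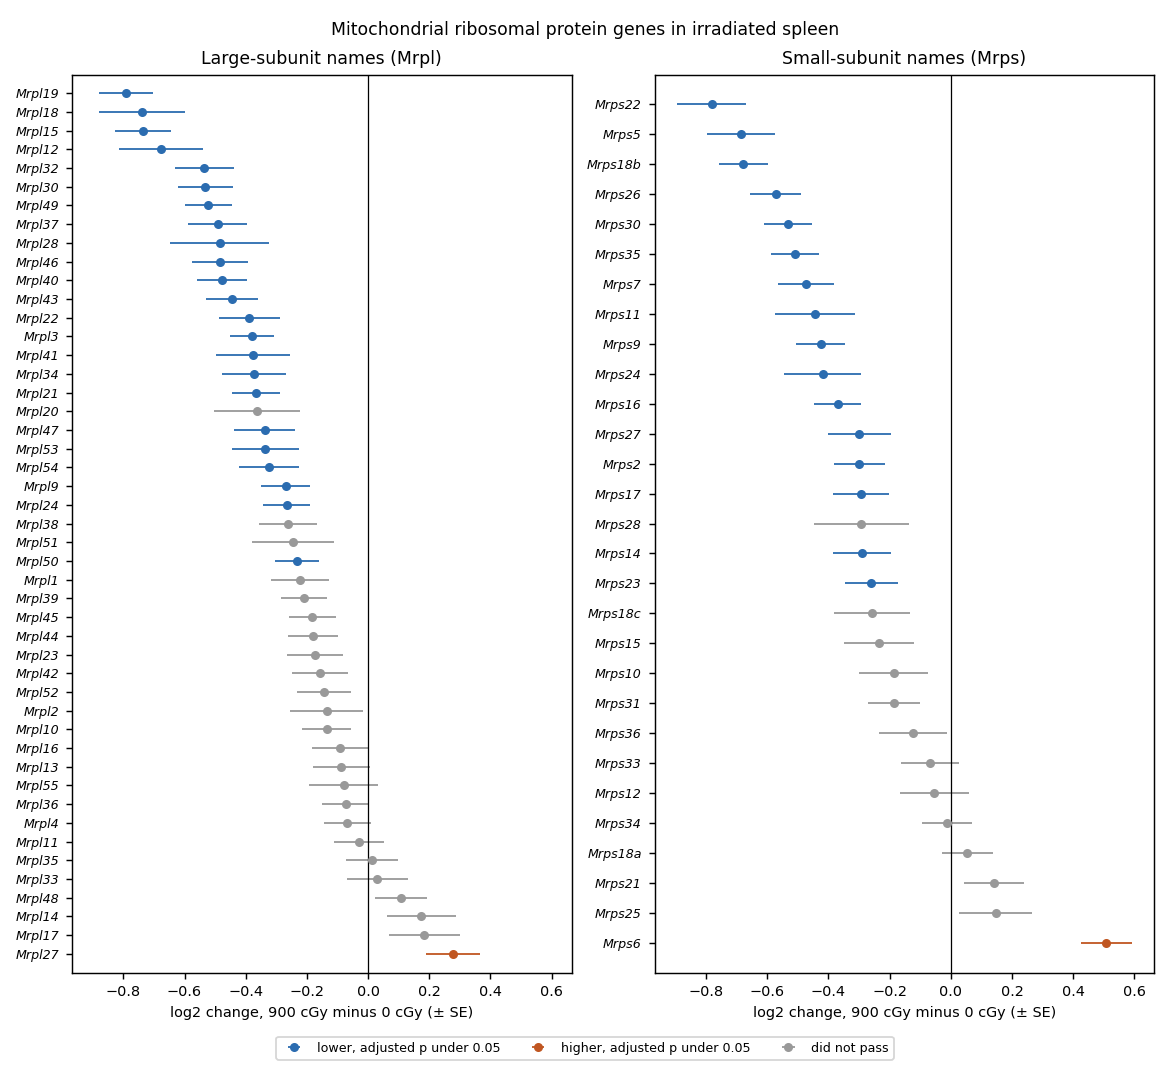
Log2 change after 900 cGy (x axis, irradiated minus unirradiated, bars are the standard error of limma) for each of the 76 genes, with large-subunit names on the left and small-subunit names on the right. Most points lie left of 0, from -0.79 for Mrpl19, and the 2 genes that rose, Mrpl27 and Mrps6, are at the bottom.

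Levels are given for replicates 1 to 3 of each dose, on a log2 scale on which 0 is the 75th percentile of an array's signals. They can be compared between arrays for 1 gene but not between genes, because probes differ in brightness. Among the large-subunit genes the strongest decrease was that of Mrpl19, the counterpart of a bacterial protein at the interface of the subunits. Its levels were 1.01, 1.03 and 1.04 without irradiation and 0.36, 0.15 and 0.19 after it. The unirradiated pools were almost identical and every irradiated pool was far below them. The log2 change was -0.79 ± 0.09 (SE, 3 pools per group), a 1.73-fold decrease with an adjusted p of 0.000451 in limma.

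Mrpl18 belongs to the family of proteins that hold 5S rRNA in other ribosomes. Its levels were 3.31, 3.20 and 2.82 at 0 cGy and 2.41, 2.36 and 2.35 at 900 cGy. Unirradiated replicate 3 was well below its companions, and still above all irradiated pools. The change was -0.74 ± 0.14 with an adjusted p of 0.00434 in limma. Mrpl15, a core protein of the large subunit, had levels of 2.25, 2.05 and 2.02 against 1.40, 1.33 and 1.37. The groups were separate and the irradiated pools close together, with a change of -0.74 ± 0.09 (adjusted p = 0.000743, limma).

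Mrpl12 forms the flexible stalk that recruits translation factors to the ribosome. Its levels were 4.51, 4.35 and 4.02 without irradiation and 3.60, 3.66 and 3.59 with it. The spread among unirradiated pools (SD 0.25) was several times that among irradiated ones (SD 0.04), and again replicate 3 was the lowest of its group. The change was -0.68 ± 0.14 (adjusted p = 0.00569, limma).

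Among the small-subunit genes Mrps22, which has no bacterial counterpart and is needed for a stable small subunit, fell most. Its levels were 0.96, 0.71 and 0.58 at 0 cGy and -0.02, -0.05 and -0.02 at 900 cGy. The irradiated pools were nearly equal and all below the unirradiated ones. The change was -0.78 ± 0.11, or 1.72-fold lower, with an adjusted p of 0.00137 in limma.

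Mrps5, whose bacterial counterpart helps keep decoding accurate, had levels of 0.31, 0.05 and 0.07 against -0.41, -0.57 and -0.65. The nearest pools of both groups were still well apart, with a change of -0.68 ± 0.11 (adjusted p = 0.00224, limma). Mrps26, a mitochondria-specific subunit, had levels of 4.61, 4.63 and 4.50 against 4.08, 3.96 and 3.97. It changed by -0.57 ± 0.08 (adjusted p = 0.00142, limma), with little spread in either group.

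Both genes that rose have a bacterial counterpart. Mrps6, a small-subunit protein, had levels of 2.38, 2.41 and 2.45 at 0 cGy and 2.83, 2.95 and 3.00 at 900 cGy. Its groups were clearly separate, opposite in direction to nearly all its partners in the ribosome. The change was 0.51 ± 0.08, or 1.42-fold higher, with an adjusted p of 0.0023 in limma. When arrays were scaled to their spike-in controls in place of the 75th percentile, the change was 0.24 and did not pass (adjusted p = 0.279).

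Mrpl27, the counterpart of a bacterial protein beside the site of peptide bond formation, was 2.81, 2.77 and 2.71 without irradiation and 2.94, 3.05 and 3.14 with it. The groups were separate by a narrow margin. The change was 0.28 ± 0.09 (adjusted p = 0.0321, limma). It passed under 9 of 19 alternative settings and was 0.01 with spike-in scaling. The call was also lost with no filter, with each of the 3 blocks, within slide row 1 and without any one of 4 arrays.

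**Figure D2:**
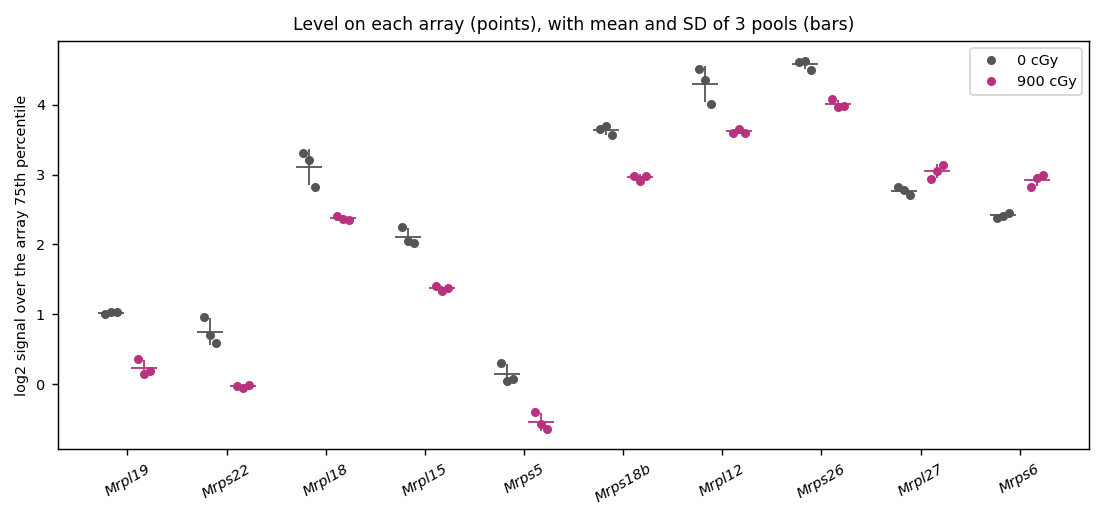
Log2 signal over the array's 75th percentile (y axis) on each of the 6 arrays for the 8 genes with the largest decrease and the 2 that rose. Points are pools of 3 mice, horizontal ticks the mean and vertical bars the SD of 3 pools. In each gene the irradiated points lie entirely below or, in Mrpl27 and Mrps6, entirely above the unirradiated ones.

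The remaining 31 genes that fell changed by between -0.54 (Mrpl32) and -0.23 (Mrpl50). They included further large-subunit genes such as Mrpl30 (-0.53), Mrpl49 (-0.52) and Mrpl37 (-0.49), and small-subunit genes such as Mrps35 (-0.51) and Mrps7 (-0.47). Mrps30 (-0.53) also fell, and its product is now placed in the large subunit despite the name. Of the 35 that did not pass, 27 had negative and 8 positive estimates, from -0.36 (Mrpl20, adjusted p = 0.0646) to 0.18 (Mrpl17). A miss of the threshold does not show that these genes were unchanged.

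The shift was spread over both subunits and both evolutionary classes. Of the 47 genes with large-subunit names 23 fell and 1 rose, with a median of -0.26. Of the 29 with small-subunit names 16 fell and 1 rose, with a median of -0.29. Among 46 proteins with a bacterial counterpart 23 fell and 2 rose (median -0.28), and among 29 mitochondria-specific ones 16 fell and 0 rose (median -0.26). Mrps36 was put in neither class, because its product is now known as a subunit of the oxoglutarate dehydrogenase complex, and it did not pass (-0.12 ± 0.11).

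The 3 paralogues of the Mrps18 family gave different values. Their products occupy different places: that of Mrps18c stands where the bacterial protein S18 does, that of Mrps18b lies elsewhere in the small subunit, and that of Mrps18a is part of the large subunit despite its name. Mrps18b had levels of 3.65, 3.70 and 3.56 against 2.99, 2.90 and 2.98, a change of -0.68 ± 0.08 (adjusted p = 0.0006, limma). Mrps18c had levels of 3.21, 3.10 and 2.78 against 2.76, 2.79 and 2.77, and its groups overlapped through unirradiated replicate 3 (-0.26 ± 0.12, adjusted p = 0.119). Mrps18a had levels of 2.68, 2.59 and 2.55 against 2.73, 2.65 and 2.61, with a change of 0.05 ± 0.08 (adjusted p = 0.597). In the main setting only Mrps18b passed, and the differences between the paralogues' changes were not tested. Mrps18c passed in 3 of 19 alternative settings, and its estimates over the 19 ran from -0.53 to -0.17. With spike-in scaling the estimate for Mrps18a was -0.22, and with the slide column as a block it was -0.01.

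For 25 of the 76 genes more than 1 probe passed the background filter, which allows a second reading of the same gene. When each of the 105 tested probes was fitted on its own, 57 were lower and 3 higher. In that fit 31% of all 39680 probes were lower and 26.4% higher. In 21 of the 25 genes all probes moved in the same direction, and in 14 of them every probe was significantly lower. For Mrps18b the 3 probes gave -0.68, -0.67 and -0.64, and for Mrpl15 the pair gave -0.74 and -0.68. The first and last of the Mrps18b probes overlap, at chr17:36047331-36047390 and chr17:36047326-36047385 (mm9), and are not separate readings. The probe pairs of Mrpl40 and of Mrpl23 overlap as well. For Mrpl27 the second probe gave 0.46 beside 0.28.

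In 4 genes the probes pointed in opposite directions. In Mrps25 the brightest probe, at chr6:92124834-92124893 (mm9), gave 0.15 and did not pass, whereas a probe at chr6:92119530-92119589, further along the gene, fell by 0.61 (adjusted p = 0.00252, limma over probes). The average of both was -0.23. Mrpl39 gave -0.21 with its brightest probe and 0.26 with its other one, neither passing. In Mrps2 the brightest probe was lower (-0.30) and the other stood at 0.02. Mrpl47 had 4 probes, at -0.34, -0.58, -0.06 and 0.08, of which the first pair passed and the latter pair did not. For these genes the measured change differed between probes, and the part of probe position or signal strength in this was not tested.

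**Figure D3:**
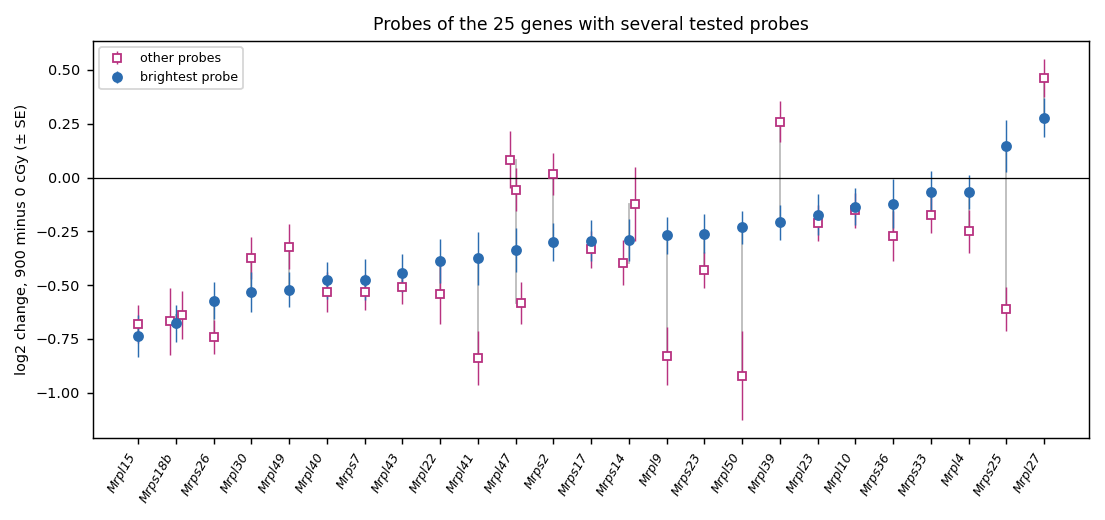
Log2 change (y axis, ± standard error) of every tested probe for the 25 genes with several probes. Filled circles are the brightest probe of a gene, which stands for it elsewhere, and open squares are its other probes. Most pairs lie on the same side of 0, and Mrps25 shows the widest split across it, from 0.15 to -0.61.

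The level of the members as a group could be read on each array. Relative to the mean of the unirradiated arrays, the members' median stood at 0.10, 0.02 and -0.10 for 0 cGy replicates 1 to 3 and at -0.27, -0.29 and -0.26 for the irradiated replicates. The irradiated pools were nearly identical, while the unirradiated ones were spread more widely. Replicate 3 at 0 cGy was nearest to the irradiated pools, and without it 50 members fell and 1 rose, with a median change of -0.33. In that fit 65.8% of the members were lower, against 33.5% of all genes. Without any one of the other arrays between 22 and 30 members fell. When an irradiated array was left out, 28.9% to 30.3% of the members were lower, against 25.6% to 26.5% of all genes, so their share was then near that at large.

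The position of arrays on the slide bears on these counts. All unirradiated arrays and irradiated replicate 1 lay in slide row 1, and irradiated replicates 2 and 3 in row 2. With the row as a block 18 members fell and 1 rose. These 18 are 23.7% of the members, and 23.6% of all genes were lower in the same fit, so the members' share was then that of genes at large. Within row 1 alone, a comparison of 3 arrays with 1, 3 members fell (Mrpl19 at -0.67, Mrpl15 at -0.71 and Mrps18b at -0.65) and the median was -0.27. These 3 are 3.95% of the members, against 14.8% of all genes lower in that fit. In both fits the median of all genes was -0.11, and the members' median minus that of all genes was -0.15, against -0.21 without the block.

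Scaling matters for the direction of small changes. With arrays scaled to spike-in controls, the median of all genes was -0.33 and that of the members -0.54, since this scaling shifts all genes of an array alike. In that setting 51 members fell and 0 rose. These 51 are 67.1% of the members, against 40% of all genes lower in the same fit. Over all genes the higher calls made up 31.5% of those called, against 47.7% with the 75th percentile.

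The members were next set beside other genes of mitochondrial translation, from lists of known factors. The mitochondrial ribosome has further subunits whose genes carry other names or newer symbols. Of 7 such genes 4 fell and 0 rose, with a median of -0.52: Ptcd3 (-0.84 ± 0.08), an RNA-binding protein of the small subunit, Gadd45gip1 (-0.62 ± 0.14) and Mrpl57 (-0.55 ± 0.11), both of the large subunit, and Dap3 (-0.52 ± 0.10), a GTP-binding protein of the small subunit. Ptcd3 had levels of 3.65, 3.67 and 3.56 against 2.77, 2.79 and 2.80, so the groups were widely separated.

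Assembly factors build the ribosome from its rRNAs and proteins without being part of it. Of 23 tested factors 10 fell and 0 rose, with a median of -0.23. The largest change was that of Noa1, a GTPase for the small subunit, with levels of 1.67, 1.63 and 1.34 against 0.24, 0.16 and 0.17 (-1.35 ± 0.11, adjusted p = 0.000153, limma). Mrm1 and Mrm3, methyltransferases that modify the rRNA of the large subunit, changed by -1.26 ± 0.14 and -0.79 ± 0.09. Noa1 and Mrm1 were past 2-fold, unlike any of the ribosomal proteins themselves. Fastkd2 could not be tested.

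Factors of mitochondrial translation, some of which act on mRNA and not on the finished ribosome, also fell in part. Of 15 tested 9 fell and 2 rose, with a median of -0.34. Lrpprc, which stabilises mitochondrial mRNAs, had levels of 3.45, 3.54 and 3.24 against 2.60, 2.55 and 2.65 (-0.81 ± 0.10, adjusted p = 0.000777, limma). The release factor gene Mtrf1l (-0.71 ± 0.10) and Guf1 (-0.63 ± 0.09), a GTPase related to elongation factors, followed. The genes that rose were Mrrf, which recycles ribosomes after termination (0.33 ± 0.11), and Slirp, the protein partner of Lrpprc (0.32 ± 0.11). With spike-in scaling 10 of these factors fell and 0 rose.

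The aminoacyl-tRNA synthetases of mitochondria, which charge the tRNAs that the ribosome reads, had the highest share of decreases among these lists. Of 17 tested 15 fell and 0 rose, with a median of -0.42, against 31% lower among all genes. Mars2, the methionine enzyme, had levels of -2.16, -2.33 and -2.37 against -4.06, -4.22 and -3.99. The change was -1.81 ± 0.10, a 3.50-fold decrease, with an adjusted p of 6.71e-05 in limma. Nars2 for asparagine changed by -1.02 ± 0.17 and Yars2 for tyrosine by -0.95 ± 0.12. With normexp background correction the change of Mars2 was -1.10 and that of Nars2, whose signal was weak on all arrays, -0.29. With the slide row as a block 6 of the 17 passed.

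Maintenance and transcription of mitochondrial DNA, the source of the ribosome's rRNAs, showed a similar picture. Of 12 genes 8 fell and 0 rose, with a median of -0.47. Tfam, which packages mitochondrial DNA and starts its transcription, had levels of 2.51, 2.57 and 2.65 at 0 cGy and 1.43, 1.53 and 1.49 at 900 cGy. The change was -1.10 ± 0.08, or 2.14-fold lower, with an adjusted p of 0.000113 in limma. Twnk, the replicative helicase, changed by -0.98 ± 0.09 and Mterf2, of the transcription termination factor family, by -0.97 ± 0.16.

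Of 10 regulators of mitochondrial biogenesis 5 fell and 0 rose, with a median of -0.41. Myc had levels of 1.72, 1.76 and 1.72 without irradiation and -0.37, -0.51 and -0.39 with it. The change was -2.16 ± 0.08, a 4.47-fold decrease with an adjusted p of 5.06e-05 in limma, larger than that of any ribosomal protein gene. Nrf1 stood at 2.03, 1.94 and 1.55 against 0.79, 0.85 and 0.87. It changed by -1.002 ± 0.139 (adjusted p = 0.00116, limma), and unirradiated replicate 3 was the lowest of its group.

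The coactivator gene Pprc1 had levels of -1.37, -1.22 and -1.42 against -2.06, -2.24 and -2.19 (-0.83 ± 0.10, adjusted p = 0.000543, limma). For the GABP complex, the partner subunits Gabpb2 (-1.10 ± 0.07) and Gabpb1 (-0.50 ± 0.11) fell, while the DNA-binding subunit Gabpa was at -0.23 ± 0.09 and did not pass (adjusted p = 0.075). Ppargc1b, a coactivator of the PGC-1 family, was at -0.24 ± 0.12 and did not pass either (adjusted p = 0.123). Gabpa passed in 5 of 19 alternative settings and Ppargc1b in 2, with estimates from -0.49 to -0.14 and from -0.51 to -0.10 over the 19.

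Cytosolic ribosomal proteins and oxidative phosphorylation subunits are the sets nearest to the members in function, as the other ribosome of the cell and as the complexes that mitochondrial translation serves. Of 85 cytosolic ribosomal protein genes 69 fell and 2 rose, with a median of -0.42. The 2 that rose, Rps4l and Rps27l, belong to 7 paralogues with an l for -like after the number, of which 4 fell. Of 77 nuclear genes for oxidative phosphorylation 11 fell and 6 rose, with a median of -0.06, equal to that of all genes at this precision. The share of members that fell (51.3%) lay between those of both sets (81.2% and 14.3%). This order depends on the scaling: with quantile normalization 53.9% of the members and 52.9% of the cytosolic set fell, with medians of -0.28 and -0.25. These differences between sets were not tested. Without unirradiated replicate 3 the counts of genes that fell were 75 for the cytosolic set and 24 for oxidative phosphorylation. Among all genes 33.5% were lower in that fit. With the slide row as a block the counts were 43 and 2, and 23.6% of all genes were lower.

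**Figure D4:**
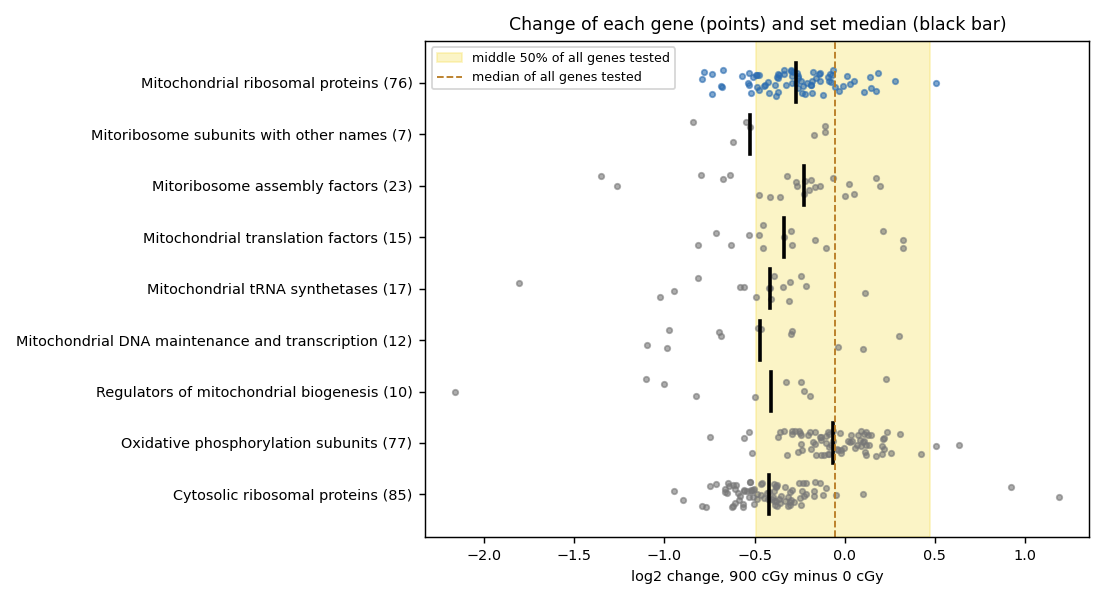
Log2 change after 900 cGy (x axis) of each gene in the members, in 6 lists of related genes and in 2 comparison sets, with the number of genes tested in brackets. Black bars are set medians, the dashed line is the median of all genes (-0.06) and the shaded band holds their middle 50%. The members centre on -0.27 with few genes far out, whereas the smaller lists reach further to the left.

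Many of these genes sit back to back with another gene. A neighbour on the opposite strand whose start lay within 1000 bases was found for 25 of the 67 members with a promoter (37.3%), against 12.2% of all 27025 genes. Those 27025 include genes not tested here, whereas all members were tested, and the share among tested genes alone was not computed. The sequences between the starts are printed on the strand of the first gene, for 3 pairs in which both genes fell and for Mrpl27 with Eme1, which moved in opposite directions. The first pair consists of a small-subunit and a large-subunit gene that fell alike, Mrps11 (-0.44 ± 0.13) and Mrpl46 (-0.48 ± 0.09).

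Mrps11 and Mrpl46 (chr7:78783090-78783130): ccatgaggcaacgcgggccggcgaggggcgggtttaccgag

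Mrpl43 and Twnk (chr19:45006443-45006557, ETS motif in capitals): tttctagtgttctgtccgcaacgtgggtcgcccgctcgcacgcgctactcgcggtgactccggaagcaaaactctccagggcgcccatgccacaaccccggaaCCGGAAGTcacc

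Mrpl27 and Eme1 (chr11:94653744-94653790): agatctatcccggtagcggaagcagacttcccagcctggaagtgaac

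Mrpl18 and Tcp1 (chr17:12916092-12916328): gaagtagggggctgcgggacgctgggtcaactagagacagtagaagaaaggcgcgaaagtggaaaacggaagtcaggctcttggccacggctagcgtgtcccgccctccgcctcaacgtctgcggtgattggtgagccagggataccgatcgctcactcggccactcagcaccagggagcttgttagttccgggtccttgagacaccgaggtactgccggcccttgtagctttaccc

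Of 24 such pairs 23 could be tested on both sides, and the neighbours named here were chosen after their values were seen. Of the 23 neighbours, with Mrps11 counted as that of Mrpl46, 11 fell and 2 rose. Among all genes 31% were lower and 28.3% higher. Both genes fell in 7 pairs. Besides Mrps11 with Mrpl46, these were Mrpl18 with Tcp1, a subunit of the cytosolic chaperonin (-1.12 ± 0.12), Mrpl43 with Twnk (-0.98 ± 0.09), Mrpl40 with the histone chaperone gene Hira (-0.76 ± 0.10), Mrps18b with Ppp1r10 (-0.68 ± 0.10, or -0.40 as the mean of its probes), Mrps7 with Gga3 (-0.47 ± 0.08) and Mrpl30 with Mitd1 (-0.31 ± 0.08). In 9 pairs the member fell and its neighbour did not pass.

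In 1 pair both genes passed in opposite directions. Mrpl27 rose by 0.28, while Eme1, a subunit of a structure-specific DNA endonuclease whose start lies 48 bases away, changed by -2.13 ± 0.29. The levels of Eme1 were 0.37, 0.08 and -0.79 at 0 cGy and -2.20, -2.30 and -2.22 at 900 cGy. Unirradiated replicate 3 was by far the lowest of its group and still above the irradiated pools.

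In the other pairs the member did not pass. The neighbour fell beside Mrpl51 (Ncapd2, a condensin subunit, -2.26 ± 0.33), Mrps18c (Helq, a DNA helicase, -0.99 ± 0.12) and Mrps12 (Sars2, the mitochondrial serine tRNA synthetase, -0.81 ± 0.16). It rose beside Mrpl14 (Tmem63b, 0.86 ± 0.10) and Mrpl2 (Klc4, a kinesin light chain, 0.80 ± 0.10). In 1 pair neither gene passed. Like changes were thus seen in some pairs and not in others. Whether they were more frequent than among unrelated genes was not tested.

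**Figure D5:**
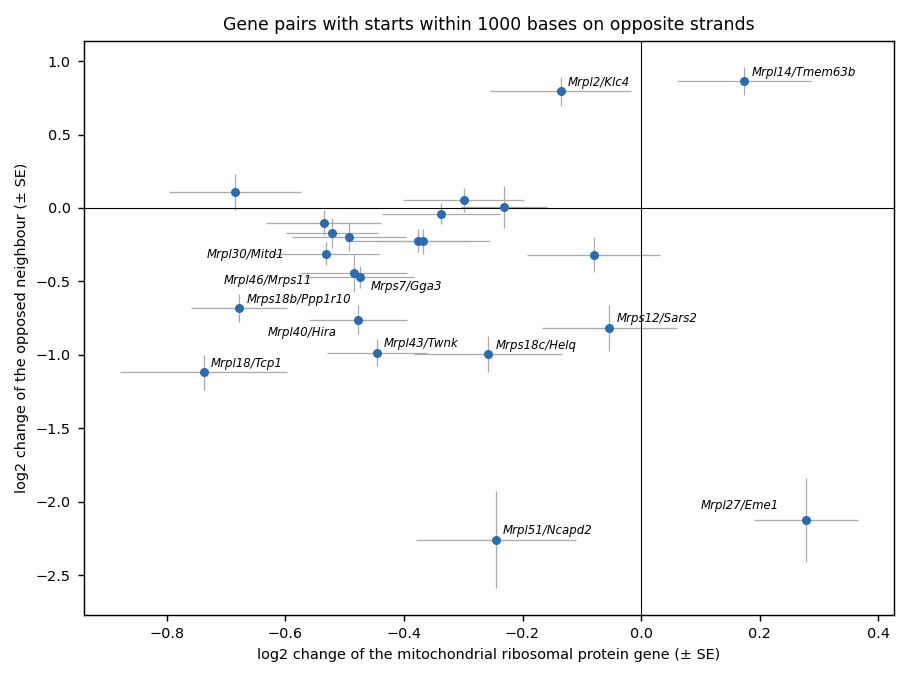
Log2 change of the mitochondrial ribosomal protein gene (x axis) and of its opposed neighbour (y axis), both ± standard error, for the 23 pairs tested. Neighbours that passed the threshold are named. The points of the 7 pairs in which both fell lie at the lower left, and Mrpl27 with Eme1 lies at the lower right.

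Mrps6, the member with the largest rise, has no such neighbour listed. None of the 5 motifs matched in the 150 bases before its start, which are shown for comparison with the promoters of the genes that fell.

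Mrps6 (chr16:92058186-92058335, + strand): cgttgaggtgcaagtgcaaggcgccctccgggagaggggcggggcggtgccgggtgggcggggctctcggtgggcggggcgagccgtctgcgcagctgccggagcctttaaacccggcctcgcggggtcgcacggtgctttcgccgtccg

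Marker transcripts of many cell types differed strongly between the groups. In bulk RNA fewer cells of a type and less RNA per cell cannot be told apart. Summed levels are in multiples of the array's 75th percentile. All 9 tested markers of dividing cells fell (median -2.76), with sums of 56.5 to 167 at 0 cGy and 12.6 to 13.7 at 900 cGy. The lowest unirradiated sum was that of replicate 3, the same pool that was lowest for the members. All 10 markers of erythroid precursors fell (median -6.75, sums of 143 to 360 against 8.22 to 13.2), and Rhd among them was not above background after irradiation.

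All 8 B cell markers fell (median -2.73, 284 to 366 against 49.2 to 54.7), as did all 8 T cell markers (median -1.77, 63.7 to 92.6 against 22.1 to 23.4). All 8 macrophage markers rose (median 1.92, 182 to 194 against 593 to 611), and so did 7 of 8 markers of stroma and endothelium (median 1.27) and 6 of 6 of fat (median 3.77). Of 6 neutrophil markers 1 rose and 1 fell. The defining markers of spleen lymphocytes and macrophages were thus above background on all arrays of the labelled tissue. Of 10 genes of the exocrine pancreas, an organ that adjoins the spleen, 9 rose, with sums of 0.541 to 188 at 0 cGy and 1346 to 1670 at 900 cGy. Whether a change in cell makeup had a part in the lower levels of the mitochondrial ribosomal proteins was not tested.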

How the data were processed

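Total RNA of spleen was hybridised to 6 Agilent one-colour arrays on 1 slide, 3 per dose. Per the submitters' processing notes and the file headers, Agilent Feature Extraction 10.5.1.1 gave the deposited intensity of each of 62976 spots, background-subtracted and not scaled between arrays. A second, deposited table gives log2 values from the authors. Compared with the intensities (r over probes at least 0.99994, same direction), it had been put on the same percentile scale, and each probe's median had been subtracted. It has column medians of 0.047, -0.0059 and -0.046 at 0 cGy and -0.025, 0.018 and -0.0083 at 900 cGy. It was used as an alternative.

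From the intensities, log2 signals were reduced by the log2 75th percentile of the 59305 non-control spots (1114 to 1403 across arrays). Control spots and 91 to 146 outlier spots per array were left out, none was saturated, and 39031 to 41261 of 55681 probes were well above background. The number of arrays limits the precision.

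Accessions named 27235 probes through a RefSeq table (GRCm38.p6), symbols 3581 and synonyms 565, and 24300 kept the name in the files. Probe positions are mm9, from the files. Each gene was represented by its brightest probe, kept if well above background on all 3 arrays of a group. Doses were compared with limma 3.58.1 in R 4.3.3 (lmFit, eBayes, two-sided, Benjamini-Hochberg over all genes, threshold 0.05), after testing on simulated data.

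Named with values were the 8 largest decreases and the rises among members that passed, the Mrps18 paralogues, members whose probes disagree, the 3 largest changes of each pathway list and 5 regulators; other members and the neighbours were added as examples. The members and lists were chosen with earlier results of these data known. Alternatives covered background correction, scaling, filters, probes, slide position, a replicate block and leaving out each array.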

Additional observations from a re-analysis of the deposited data

How the results depend on the processing

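The median log2 change of the members (-0.27) was negative under every alternative run. The SD of the members' median level between arrays of the same dose was 0.042. This was taken before centring each gene on its unirradiated mean, when the unirradiated arrays ran from 2.63 to 2.75. After centring they ran from -0.10 to 0.10, a wider spread, and the moves were not set against that spread. The median change moved by more than the uncentred SD of 0.042 in 3 settings. These were spike-in scaling (-0.54), the slide column as a block (-0.34) and leaving out unirradiated replicate 3 (-0.33). Leaving out each array in turn gave -0.24 to -0.33. The 39 members that fell became 18 with the slide row as a block and 3 within slide row 1 alone, where fewer arrays enter, and 22 to 50 when each array was left out. The members' share that was lower, 51.3% against 31% of all genes, became 23.7% against 23.6% with the row block, 3.95% against 14.8% within row 1, and 28.9% to 30.3% against 25.6% to 26.5% without an irradiated array. All 39 were among the 51 that fell with spike-in scaling and among the 50 without unirradiated replicate 3. The 51 are 67.1% of the members against 40% of all genes, and the 50 are 65.8% against 33.5%. The 2 members that rose became 0 with spike-in scaling and within slide row 1 alone, 1 without the dim-probe filter, 1 with the slide row and 1 with the slide column as a block, and 1 to 2 when each array was left out. Over all genes, spike-in scaling left 4894 higher calls of 7535, and slide row 1 alone 4466 higher and 3931 lower calls. The cause of these differences was not tested.

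Same-numbered arrays of both doses hardly deviated together (r of 0.07, 0.12 and -0.002 over genes), so the replicate numbers were not taken to pair the pools. With the replicate number as a block, 28 members fell and 1 rose, all 28 among the 39. These 28 are 36.8% of the members, against 28.4% of all genes lower in that fit.

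No member past the threshold in the main setting changed sign in the fits of 1 value per gene. With spike-in scaling 8 members changed sign (Mrpl14, Mrpl17, Mrpl33, Mrpl35, Mrpl48, Mrps18a, Mrps21 and Mrps25), and in the other such fits 0 to 3 did. For the members that the naming rule covers the changed values are those of Mrps18a (-0.22 with spike-in scaling, -0.0085 with the slide column as a block), Mrps25 (-0.12 with spike-in scaling, -0.23 as the mean of its probes) and Mrpl39 (0.026 as the mean of its probes). Normexp background correction, quantile normalization, median scaling, the deposited table and the stricter filter gave between 33 and 42 members that fell and 2 that rose. The members' share that was lower ran from 43.4% to 55.3% in these fits, and that of all genes from 29.4% to 31.8%.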
